A study of Mus musculus with 12 samples.

Results

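The genes described here are those whose level differed between Bcl6 knockout and control thymocytes in the same direction at 3 stages of T cell development. In each of the populations called CD25, ISP and DP, both KO libraries had to lie above both Control libraries, or both below them. Of the 24421 genes in the table, 483 met that condition (1.98%), 310 of them higher in KO (1.27%) and 173 lower in KO (0.708%). A fit of all 6 KO against all 6 Control libraries, with the population as a covariate, gave each gene 1 stage-independent difference.

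RNA was sequenced from thymocytes of C57BL/6 mouse embryos in 6 groups of 2 libraries. KO embryos were Rag1KO Bcl6fl/fl LckCre+, and Control embryos were Rag1KO Bcl6fl/fl LckCre-. The CD25 groups were CD25+ cells sorted from unstimulated thymi, the ISP groups were CD4-CD8+ cells and the DP groups were CD4+CD8+ cells, both of these from thymi cultured on filters for 2 days with 1 µg/ml of anti-CD3. Most labels give the embryos as E16.5, whereas the treatment protocol has E17.5. Every group lacks Rag1, and only KO embryos carry Cre, so loss of Bcl6 and presence of Cre cannot be told apart. In LckCre the recombinase is driven by the promoter of Lck, a kinase of the T lineage. Nothing in the labels tells whether replicate libraries, or the ISP and DP libraries, came from separate embryos. P-values therefore measure only the spread between these samples, which may be technical. The 2 libraries of ISP Control differed widely in Xist, as did those of DP Control (values below), so those pairs were not technical repeats of 1 sample.

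BCL6 is a zinc-finger repressor that recruits corepressor complexes, and its main known roles are in B cells of the germinal centre and in T cells that help them. Thymocytes without Rag1 do not assemble receptor genes and are held at the CD25+ stage, and crosslinking CD3 stands in for the missing pre-receptor signal and lets them gain CD8 and then CD4. Interferon-response genes are switched on when type I or type III interferon activates a complex of STAT proteins and IRF9, which binds an element built from repeats of GAAA or, on the other strand, TTTC.

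Some libraries carry names that go against their titles. The name under which a library was sequenced differs in population or genotype from its title for 6 of the 8 anti-CD3 libraries, and groups here follow the titles. The genes that define the sorted populations followed the titles: Cd4 lay between 1.03 and 1.78 RPKM in CD25, between 13.9 and 20.5 RPKM in ISP and between 191 and 344 RPKM in DP libraries. Cd8a lay between 1.29 and 2.16 RPKM in CD25, between 230.4 and 302 RPKM in ISP and between 774 and 873 RPKM in DP libraries. These markers say nothing of the genotype. Gh had reads in all 6 libraries titled KO and in none of the 6 titled Control, also in CD25, where both names give the same groups. Read from the library names, all libraries titled ISP are Control and all titled DP are KO, so that genotype and stage are mixed. Only 38 of the 483 genes met the condition under that reading.

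Depth was similar across libraries. Reads recovered from the RPKM values summed to 9658181 in the shallowest library and 14228715 in the deepest, and 10241 to 10568 genes had 1 RPKM or more. RPKM counts reads scaled to the length of the gene and the depth of the library. A single read weighed 0.0697 to 0.105 RPKM where the gene was 1000 bases long. Sex-linked genes differed between libraries of 1 population. Ddx3y, a Y-linked gene, stood at 7.61 and 18.7 RPKM in CD25 KO against 19.8 and 10.8 in CD25 Control. ISP KO had 0 and 0.0979 RPKM against 7.28 and 29.7 in ISP Control, and DP KO had 0 and 0.0907 against 15.7 and 56.3 in DP Control. Xist, the RNA that coats the silenced X chromosome, stood at 17.48 and 9.79 RPKM in CD25 KO against 16.6 and 17.3 in CD25 Control. ISP KO had 21.4 and 20.8 RPKM against 20.5 and 0.766 in ISP Control, and DP KO had 25.5 and 25.6 against 22.5 and 0.914 in DP Control. The anti-CD3 KO libraries thus had next to no Y-linked RNA, and replicate 2 of ISP Control and of DP Control had little Xist. The main counts are therefore also given without those 2 Control libraries. This does not remove the difference, since replicate 1 of ISP Control and of DP Control still had Ddx3y at 7.28 and 15.7 RPKM. In ISP and DP, genotype and Y-linked RNA go together and cannot be told apart. The part of sex in the results was not tested. No gene of the Y chromosome met the condition, and 11 of 341 tested genes on the X did (3.23%, against 3.88% of all placed tested genes).

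The targeted gene did not meet the condition. Bcl6 (GRCm38 chromosome 16, 23965052 to 23988852, minus strand) stood at 2.01 and 1.63 RPKM in CD25 KO against 1.82 and 1.49 in CD25 Control. ISP KO had 18.9 and 25.1 RPKM against 11.9 and 11.6 in ISP Control, and DP KO had 87.7 and 111 against 72.5 and 70.0 in DP Control. KO and Control overlapped in CD25, where the gene is low, and KO was the higher group in ISP and DP (log2 difference 0.46 ± 0.11 SE, adjusted p = 0.0732). These are values of the whole gene, and a transcript from which floxed exons are removed still counts, so they check nothing about the deletion. Of 44 tested genes within 5000000 bases of Bcl6 on either side, 4 met the condition (Etv5, Rtp4, Lppos and Ccdc50), against 3.84% of all tested genes. Of the 44, 1 was called (Rtp4), against 1.19% of all tested genes. Rag1 is knocked out in every group, and its whole-gene value lay between 32.0 and 136 RPKM.

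Genes were tested when they had at least 1 RPKM in at least 2 libraries, on log2(RPKM + 1), with limma, and are called at a Benjamini-Hochberg adjusted p under 0.05. A log2 difference given with a standard error (SE) comes from the fit over all 12 libraries. On that scale a difference of 1 is a doubling of RPKM + 1, so the change of low genes is understated. Of 11303 tested genes, 135 were called (1.19%), 103 higher in KO (0.911%) and 32 lower (0.283%). Among the 483 genes, 434 were tested (3.84% of tested genes), 283 of them higher in KO (2.50%) and 151 lower (1.34%). Of the 434, 129 were called, 99 higher and 30 lower. The other 49 (27 higher in KO and 22 lower) were too low to be tested. Non-overlap and the fit use the same 12 values, so neither adds weight to the other. Where a gene that met the condition is said to have KO above or below Control in every population, that is how it was chosen. The 135 calls came to between 64 and 89 when any 1 of the 8 anti-CD3 libraries was left out, and to 35 without the 2 Control libraries low in Xist, 34 of which were among the 135. With all ISP libraries left out no gene was called (1345 had an unadjusted p under 0.05), and with all DP libraries left out 2 were, neither of them among the 135. Each of the 135 kept the sign of its difference under all of these settings. For the 129 that met the condition this could not come out otherwise, since their libraries are apart in the same direction in every population. A set of 49 genes was called with each of the 12 libraries left out in turn, 44 of them higher in KO and 5 lower.

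The same direction did not mean the same size. Among the 283 tested genes that were higher in KO, the median log2 difference was 0.30 over all libraries, 0.19 in CD25, 0.29 in ISP and 0.39 in DP. For the 151 that were lower it was -0.23 over all libraries, -0.17 in CD25, -0.21 in ISP and -0.29 in DP. Over all tested genes these medians lay between -0.01 and 0.01. The largest of the 3 differences was in DP for 185 of the 283 and 84 of the 151, and this was so for 55.5% of all tested genes. The share among the 151 was close to that of all tested genes, so it is not particular to them. A difference above 1 was reached by 8 genes higher in KO and by none lower, and 1 above 0.5 in size by 71 and 9. A test of whether the KO difference varies between populations called 949 of the tested genes (8.40%), 30 of the 283 and 1 of the 151. The share was near that of all tested genes for the 283 and below it for the 151.

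**Figure D1:**
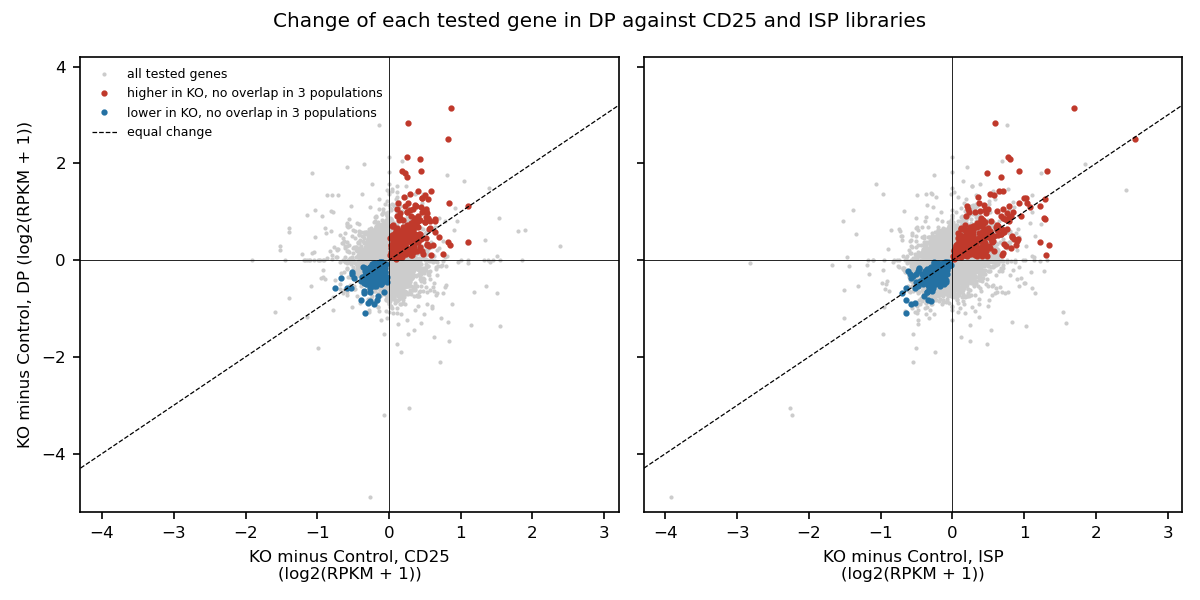
KO minus Control on log2(RPKM + 1) in DP (vertical axis) against CD25 (left) and ISP (right), for all 11303 tested genes (grey), the 283 tested genes higher in KO (red) and the 151 lower (blue), with a dashed line of equal change. The condition itself puts the coloured points in the upper right and lower left of each panel, and many red points lie above the dashed line in the CD25 panel, as the medians of 0.39 in DP and 0.19 in CD25 say.

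Of the 32 gene lists examined, that of interferon-response genes held the most called genes. Of 25 tested genes in a list of such genes, 18 rose, against 0.911% of all tested genes, and none fell. All 25 differences were above 0, and their median was 0.55. On the high side 19 of the 25 met the condition, against 2.50% of all tested genes. The median was 0.41 in CD25, 0.67 in ISP and 0.75 in DP. Counting each list gene's RPKM together, the sum was 1583 and 1453 in CD25 KO against 1163 and 1271 in CD25 Control, 837 and 769.7 in ISP KO against 577 and 469 in ISP Control, and 769 and 800.1 in DP KO against 515 and 411 in DP Control. KO lay above Control in every population, by 1.25-fold, 1.54-fold and 1.69-fold in CD25, ISP and DP. Without the 2 Control libraries low in Xist, 12 of the 25 were called and all 25 differences stayed above 0. In the CD25 libraries alone, none was called and 24 were above 0 with a median of 0.41.

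The factors that carry the interferon signal came first. Irf7, which turns on interferon genes, stood at 56.7 and 49.3 RPKM in CD25 KO against 32.9 and 34.4 in CD25 Control. ISP KO had 26.0 and 21.3 RPKM against 15.5 and 12.2 in ISP Control, and DP KO had 16.4 and 18.6 against 11.4 and 7.40 in DP Control. All KO libraries lay above the Control libraries of their population (log2 difference 0.74 ± 0.10 SE, adjusted p = 0.00895), with log2 differences of 0.64 in CD25, 0.74 in ISP and 0.86 in DP. Irf9, the DNA-binding part of the STAT complex, stood at 55.0 and 52.9 RPKM in CD25 KO against 39.4 and 43.8 in CD25 Control. ISP KO had 23.9 and 21.7 RPKM against 18.2 and 15.1 in ISP Control, and DP KO had 36.1 and 35.3 against 28.8 and 22.2 in DP Control. Its difference was close to even across populations (0.37 in CD25, 0.44 in ISP and 0.48 in DP) and it was called (log2 difference 0.43 ± 0.07 SE, adjusted p = 0.00895).

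Antiviral effectors of the response came next. Oas2, Oas1a and Oasl2 belong to the family of oligoadenylate synthetases and their relatives, which sense double-stranded RNA. Oas2 stood at 19.2 and 15.4 RPKM in CD25 KO against 11.8 and 11.2 in CD25 Control. ISP KO had 4.30 and 4.98 RPKM against 1.80 and 0.888 in ISP Control, and DP KO had 3.30 and 3.97 against 0.787 and 1.10 in DP Control. The mean level was lower at each later stage in both genotypes and KO was the higher one throughout, by 1.50-fold in CD25, 3.45-fold in ISP and 3.85-fold in DP (log2 difference 1.03 ± 0.14 SE, adjusted p = 0.00895). Oasl2 stood at 56.7 and 49.4 RPKM in CD25 KO against 37.0 and 40.1 in CD25 Control. ISP KO had 5.86 and 6.59 RPKM against 2.47 and 2.38 in ISP Control, and DP KO had 1.43 and 2.45 against 0.424 and 0.287 in DP Control. This was 1.38-fold, 2.57-fold and 5.45-fold Control in CD25, ISP and DP (log2 difference 0.87 ± 0.12 SE, adjusted p = 0.00895), the last from levels near the pseudocount of 1 RPKM. Oas1a stood at 14.5 and 13.9 RPKM in CD25 KO against 9.19 and 9.66 in CD25 Control. ISP KO had 6.34 and 5.73 RPKM against 2.63 and 1.27 in ISP Control, and DP KO had 2.24 and 2.51 against 1.21 and 0.564 in DP Control. Oas1a differed by 0.90 ± 0.14 SE on the log2 scale over all libraries (adjusted p = 0.00900).

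Ifitm3, a membrane protein that blocks virus entry, stood at 364 and 309.9 RPKM in CD25 KO against 249 and 271 in CD25 Control. ISP KO had 92.8 and 81.1 RPKM against 37.7 and 36.0 in ISP Control, and DP KO had 23.4 and 30.2 against 12.9 and 10.5 in DP Control. KO exceeded Control in each population (log2 difference 0.90 ± 0.13 SE, adjusted p = 0.00895). Its difference varied between populations (0.37 in CD25, 1.21 in ISP and 1.13 in DP, adjusted p = 0.0211 for the variation). Ifit1, which binds foreign RNA at its end, stood at 35.1 and 35.2 RPKM in CD25 KO against 23.1 and 27.5 in CD25 Control. ISP KO had 7.97 and 8.69 RPKM against 3.82 and 4.62 in ISP Control, and DP KO had 4.35 and 6.66 against 2.63 and 1.83 in DP Control. Ifit1 differed by 0.77 ± 0.11 SE on the log2 scale over all libraries (adjusted p = 0.00895). Rtp4, an interferon-induced chaperone of receptors, stood at 157 and 149.7 RPKM in CD25 KO against 109 and 114 in CD25 Control. ISP KO had 71.3 and 62.8 RPKM against 36.3 and 28.6 in ISP Control, and DP KO had 50.1 and 52.1 against 26.0 and 16.2 in DP Control. Rtp4 differed by 0.92 ± 0.13 SE on the log2 scale over all libraries (adjusted p = 0.00895). On the log2 scale the difference was 0.46 in CD25, 0.84 in ISP and 1.00 in DP for Ifit1, and 0.46 in CD25, 1.03 in ISP and 1.28 in DP for Rtp4, while in RPKM the gap between genotypes was widest in CD25 for both.

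Regulators and modifiers of the response were higher as well. Isg15, a ubiquitin-like protein attached to other proteins, stood at 174 and 158 RPKM in CD25 KO against 125 and 143 in CD25 Control. ISP KO had 91.2 and 85.7 RPKM against 56.3 and 35.8 in ISP Control, and DP KO had 56.6 and 64.8 against 39.8 and 25.3 in DP Control. Its call (log2 difference 0.73 ± 0.14 SE, adjusted p = 0.0252) was lost, with adjusted p up to 0.0675, when any of the 4 anti-CD3 KO libraries was left out. Usp18, which removes ISG15 and damps interferon signalling, stood at 79.0 and 68.6 RPKM in CD25 KO against 44.2 and 57.5 in CD25 Control. ISP KO had 58.8 and 48.9 RPKM against 36.6 and 26.9 in ISP Control, and DP KO had 66.9 and 69.4 against 43.3 and 27.0 in DP Control. Usp18 differed by 0.75 ± 0.12 SE on the log2 scale over all libraries (adjusted p = 0.0108). Ifi27 and its neighbour Ifi27l2a on chromosome 12 differed by 0.73 ± 0.10 and 0.98 ± 0.15 (SE). All 6 KO libraries of Ifi27l2a, between 33.3 and 49.9 RPKM, lay above all 6 Control libraries, between 13.5 and 24.6 RPKM.

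**Figure D2:**
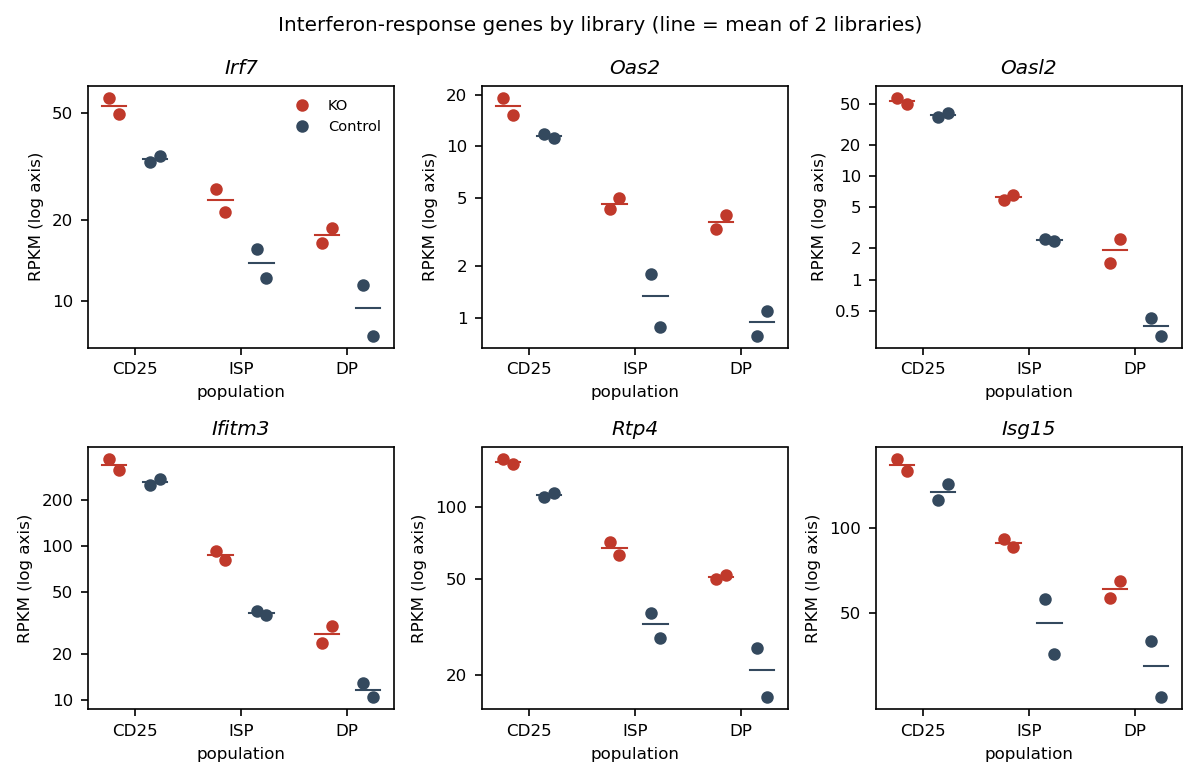
RPKM on a log axis of 6 interferon-response genes in the 12 libraries, by population, with KO (red) left of Control (dark) and a line at the mean of each pair. All 6 genes met the condition, which itself puts both KO points above both Control points of the same population. The level of the genes drops after CD25.

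Some of these genes are neighbours. On chromosome 11, Irgm1, Tgtp1, Tgtp2 and Ifi47, which are interferon-induced GTPases, met the condition among 6 tested genes between 48861968 and 49096974. All 3 tested genes between 142530342 and 142638008 on chromosome 3 did so (Gbp7, Gbp3 and Gbp2, guanylate-binding proteins). On chromosome 5 it was Oas2, Oas3 and Oas1a among 5 tested genes between 120730333 and 120907521. Irgm1 stood at 100.2 and 98.5 RPKM in CD25 KO against 81.1 and 78.7 in CD25 Control. ISP KO had 50.4 and 42.5 RPKM against 37.3 and 32.9 in ISP Control, and DP KO had 34.9 and 41.3 against 24.0 and 21.6 in DP Control. Irgm1 differed by 0.47 ± 0.07 SE on the log2 scale over all libraries (adjusted p = 0.00940). Gbp2 stood at 31.7 and 27.6 RPKM in CD25 KO against 23.0 and 24.2 in CD25 Control. ISP KO had 11.0 and 8.20 RPKM against 7.71 and 6.81 in ISP Control, and DP KO had 9.84 and 12.1 against 6.96 and 5.14 in DP Control. Its call (log2 difference 0.48 ± 0.10 SE, adjusted p = 0.0445) was lost, with adjusted p up to 0.108, when any of 9 of the 12 libraries was left out, among them all 4 DP libraries. Genes of such families resemble each other in sequence, and how the authors' counting split shared reads is not given in the sources used here.

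The promoters of these genes were searched for TTTCNNTTTC on both strands, the letters of the interferon-stimulated element, because this sequence was not used in choosing the genes. Windows ran from 250 bases before to 50 bases after the start of each gene (RefSeq, GRCm38.p6). Among tested genes higher in KO, 33 of 199 with a promoter in the table held a match (16.6%), against 1 of 119 tested genes lower in KO (0.840%) and 331 of all 8512 tested genes with a promoter (3.89%). Among called genes it was 23 of 67 higher in KO (34.3%) and 0 of 19 lower. Of the interferon list 10 of 17 did (58.8%). Over all 32851 windows of this length the share was 3.44%. The windows below are given 5′ to 3′ on the gene's strand with the matches in capitals (GAAANNGAAA where the match is on the other strand). They show 1 to 3 matches in 4 called genes, and Irf7 as a called gene with none.

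Isg15 (chr4:156200769-156201068, minus strand): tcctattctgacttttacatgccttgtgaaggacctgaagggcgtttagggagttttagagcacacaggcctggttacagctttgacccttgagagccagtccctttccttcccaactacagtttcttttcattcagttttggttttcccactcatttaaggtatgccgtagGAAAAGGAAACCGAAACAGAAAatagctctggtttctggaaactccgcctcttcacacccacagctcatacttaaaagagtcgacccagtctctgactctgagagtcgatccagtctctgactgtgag
Ifit1 (chr19:34640639-34640938, plus strand): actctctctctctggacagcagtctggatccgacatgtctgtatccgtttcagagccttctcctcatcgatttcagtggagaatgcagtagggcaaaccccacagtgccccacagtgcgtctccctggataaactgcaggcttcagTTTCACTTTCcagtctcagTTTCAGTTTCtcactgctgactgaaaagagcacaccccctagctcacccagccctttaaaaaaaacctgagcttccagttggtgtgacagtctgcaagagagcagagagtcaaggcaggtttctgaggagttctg
Oas1a (chr5:120907476-120907775, minus strand): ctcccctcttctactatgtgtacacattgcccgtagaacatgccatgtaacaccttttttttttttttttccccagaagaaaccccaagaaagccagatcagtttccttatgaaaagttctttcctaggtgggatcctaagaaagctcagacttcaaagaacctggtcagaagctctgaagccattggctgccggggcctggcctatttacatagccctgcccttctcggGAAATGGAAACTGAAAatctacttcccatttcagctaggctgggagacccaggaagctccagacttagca
Gbp2 (chr3:142620413-142620712, plus strand): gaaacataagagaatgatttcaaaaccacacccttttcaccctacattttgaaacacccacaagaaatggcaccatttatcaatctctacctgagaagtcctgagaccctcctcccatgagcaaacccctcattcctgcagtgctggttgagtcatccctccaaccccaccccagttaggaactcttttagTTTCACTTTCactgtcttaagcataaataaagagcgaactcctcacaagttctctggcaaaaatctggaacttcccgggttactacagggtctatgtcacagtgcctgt
Irf7 (chr7:141266375-141266674, minus strand): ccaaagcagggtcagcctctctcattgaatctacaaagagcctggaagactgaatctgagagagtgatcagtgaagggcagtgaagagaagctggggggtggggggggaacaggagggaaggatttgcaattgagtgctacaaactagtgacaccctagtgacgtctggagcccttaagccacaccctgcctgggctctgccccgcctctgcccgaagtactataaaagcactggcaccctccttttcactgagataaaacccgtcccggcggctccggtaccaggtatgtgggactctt

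The 3 matches of Isg15 overlap in 1 run of repeats that starts 78 bases before the gene's start. Ifit1 has 2 separate matches and Oas1a 2 overlapping ones. A match is a description of the letters, and that Irf7 has none says only that these letters are not in this window. The element of STAT dimers, searched as TTCNNNGAA (both strands), was in 14 of the 67 (20.9%) and 724 of the 8512 (8.51%), and TTCCTAGAA, the core of the BCL6 element, was in 1 of the 67 (1.49%) and 35 of the 8512 (0.411%).

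Genes of myeloid cells formed a second group. Of 11 tested markers on a list for macrophages and other myeloid cells, 4 rose (Lyz2, Csf1r, Adgre1 and Cybb), against 0.911% of all tested genes, and none fell. All 11 differences were above 0, with a median of 0.58 over all libraries, 0.33 in CD25, 0.71 in ISP and 0.84 in DP. Without the 2 Control libraries low in Xist 2 of the 11 were called, and with any 1 library left out 2 to 4 were. In the CD25 libraries alone none was called and 6 of the 11 were above 0. The summed level of the 13 listed markers, 2 of them too low to be tested, was 78.9 and 54.3 RPKM in CD25 KO against 64.1 and 42.7 in CD25 Control, where the groups overlapped. It was 61.5 and 76.3 RPKM in ISP KO against 22.0 and 24.3 in ISP Control, and 75.6 and 92.3 RPKM in DP KO against 22.6 and 15.9 in DP Control. None of the 13 was at 0 in every library. S100a8, a calcium-binding protein of neutrophils, was 19.4 and 5.31 RPKM in CD25 KO against 18.5 and 5.92 in CD25 Control. ISP KO had 3.50 and 6.57 RPKM against 0.181 and 0 in ISP Control, and DP KO had 11.9 and 0 against 0.727 and 0 in DP Control, so that libraries of 1 group were far apart. In bulk samples more cells of a type and more RNA per cell cannot be told apart. Each of the 4 called markers was separate in CD25, while S100a8 was not. The part of such cells in the differences of other genes was not tested.

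Lyz2, the lysozyme of macrophages and granulocytes, stood at 25.5 and 29.1 RPKM in CD25 KO against 18.5 and 12.0 in CD25 Control. ISP KO had 25.0 and 45.2 RPKM against 6.58 and 3.65 in ISP Control, and DP KO had 43.8 and 65.2 against 13.0 and 5.50 in DP Control. It had the largest difference of all called genes that met the condition (log2 difference 1.96 ± 0.30 SE, adjusted p = 0.00895), and its lowest KO library, at 25.0, lay above its highest Control library, at 18.5. Cybb, a subunit of the phagocyte oxidase, stood at 1.24 and 1.14 RPKM in CD25 KO against 0.440 and 0.616 in CD25 Control. ISP KO had 0.850 and 0.892 RPKM against 0.0896 and 0.199 in ISP Control, and DP KO had 1.20 and 1.79 against 0.220 and 0.172 in DP Control. Cybb differed by 0.76 ± 0.11 SE on the log2 scale over all libraries (adjusted p = 0.00895). Csf1r, the receptor for macrophage growth factor, stood at 1.40 and 1.61 RPKM in CD25 KO against 0.917 and 0.799 in CD25 Control. ISP KO had 1.20 and 1.45 RPKM against 0.256 and 0.487 in ISP Control, and DP KO had 0.757 and 2.23 against 0.343 and 0.317 in DP Control. Both are low genes, and all KO libraries were above the Control libraries of their population. The calls of Csf1r (log2 difference 0.68 ± 0.14 SE, adjusted p = 0.0361) and Adgre1 (log2 difference 0.64 ± 0.12 SE, adjusted p = 0.0236), the surface marker F4/80, were lost when some single libraries were left out, with adjusted p up to 0.0979 and 0.0627. For Csf1r these were each ISP library and both DP Control libraries, and for Adgre1 ISP KO replicate 1, ISP Control replicate 2 and DP Control replicate 2.

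Spi1 encodes PU.1, a factor shared by myeloid cells and the earliest thymocytes. It stood at 5.71 and 4.74 RPKM in CD25 KO against 3.97 and 3.42 in CD25 Control. ISP KO had 3.72 and 3.80 RPKM against 2.23 and 1.99 in ISP Control, and DP KO had 1.04 and 1.10 against 0.143 and 0.430 in DP Control. Spi1 differed by 0.57 ± 0.09 SE on the log2 scale over all libraries (adjusted p = 0.00895). Its level dropped with stage in both genotypes and lay in KO above Control throughout, and voom on recovered reads did not call it (adjusted p = 0.0567).

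**Figure D3:**
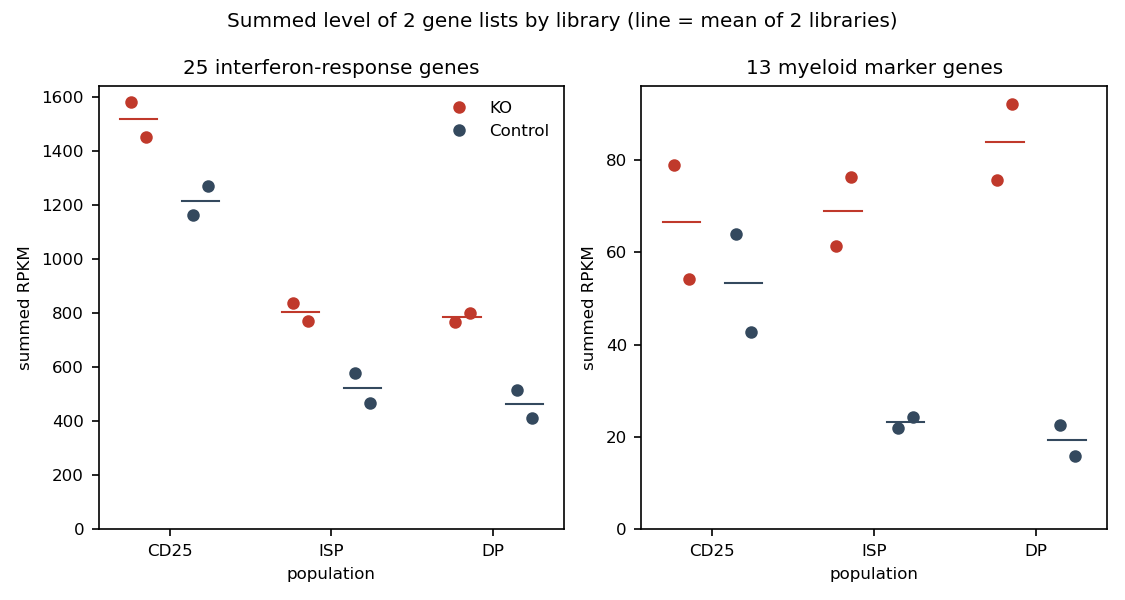
Summed RPKM of the 25 interferon-response genes (left) and the 13 myeloid markers (right) in each library, with KO (red) left of Control (dark) and a line at the mean of each pair. Both KO sums lie above both Control sums of the population in every case except the myeloid sums of CD25, where KO has 78.9 and 54.3 and Control 64.1 and 42.7.

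Among other genes higher in KO, Gh had no read in any Control library. Gh, growth hormone (chromosome 11, 106300271 to 106301865, minus strand), is a pituitary gene. It had 8 and 10 reads in CD25 KO, 20 and 35 in ISP KO and 59 and 93 in DP KO, against 0 in all 6 Control libraries. A count of 0 allows up to 3 reads per library, or 0.231 to 0.316 RPKM. The KO mean was 2.86-fold the higher of these Control floors in CD25, 8.11-fold in ISP and 26.1-fold in DP. These ratios leave out the counting error of the KO reads, which were few in CD25. In RPKM the KO libraries had 0.813 and 0.824 in CD25, 1.69 and 2.93 in ISP and 5.64 and 10.8 in DP. Only KO embryos carry Cre, so for Gh too, loss of Bcl6 and presence of the Cre transgene cannot be told apart. The origin of these reads was not tested.

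Lipg, Gpr25 and Dnmt3b had their largest difference in DP. Lipg, an endothelial lipase, stood at 5.60 and 5.42 RPKM in CD25 KO against 3.24 and 4.41 in CD25 Control. ISP KO had 7.04 and 7.86 RPKM against 2.25 and 2.54 in ISP Control, and DP KO had 2.76 and 3.39 against 0.201 and 0.0649 in DP Control. Lipg differed by 1.20 ± 0.18 SE on the log2 scale over all libraries (adjusted p = 0.00895). The differences were 0.44 in CD25, 1.32 in ISP and 1.84 in DP. Gpr25, an orphan receptor, stood at 13.1 and 11.2 RPKM in CD25 KO against 7.93 and 9.56 in CD25 Control. ISP KO had 16.1 and 20.1 RPKM against 11.7 and 8.36 in ISP Control, and DP KO had 4.18 and 8.16 against 0.678 and 0.543 in DP Control. Dnmt3b, which sets new DNA methylation, stood at 37.8 and 36.2 RPKM in CD25 KO against 31.8 and 33.4 in CD25 Control. ISP KO had 12.9 and 13.7 RPKM against 6.10 and 6.94 in ISP Control, and DP KO had 4.94 and 8.19 against 1.08 and 1.02 in DP Control. Both were called (log2 difference 1.11 ± 0.23 SE, adjusted p = 0.0426 for Gpr25 and log2 difference 0.99 ± 0.21 SE, adjusted p = 0.0427 for Dnmt3b), and each call was lost with any of 9 and any of 7 single libraries left out, among them all 4 ISP libraries (adjusted p up to 0.0979 and 0.102). For all 3 genes the KO difference varied between populations (adjusted p between 0.00682 and 0.0192).

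A pair of markers of the Ly6 family on chromosome 15 also stood out. Ly6a, the stem cell antigen Sca-1 and itself interferon-induced, stood at 227 and 198 RPKM in CD25 KO against 144 and 153 in CD25 Control. ISP KO had 54.8 and 35.3 RPKM against 29.4 and 26.9 in ISP Control, and DP KO had 6.71 and 6.61 against 2.94 and 2.61 in DP Control. Ly6a differed by 0.72 ± 0.10 SE on the log2 scale over all libraries (adjusted p = 0.00895). Ly6c2, found on monocytes and on some T cells, stood at 6.76 and 5.01 RPKM in CD25 KO against 2.43 and 1.93 in CD25 Control. ISP KO had 21.5 and 16.0 RPKM against 9.12 and 11.6 in ISP Control, and DP KO had 1.83 and 1.97 against 0.119 and 0.613 in DP Control. Ly6c2 differed by 1.00 ± 0.12 SE on the log2 scale over all libraries (adjusted p = 0.00895). Plac8, a lysosomal protein of immune cells, stood at 524 and 480.1 RPKM in CD25 KO against 423 and 408 in CD25 Control. ISP KO had 350.0 and 375 RPKM against 162 and 191 in ISP Control, and DP KO had 23.8 and 22.7 against 12.0 and 7.76 in DP Control. Plac8 differed by 0.83 ± 0.14 SE on the log2 scale over all libraries (adjusted p = 0.0120). All 3 were lower in DP than in ISP in both genotypes, and KO stayed above Control at each stage.

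Genes of T cell signalling and survival were fewer. Dusp5, a phosphatase that switches off ERK and is induced by receptor signals, stood at 16.9 and 12.4 RPKM in CD25 KO against 11.4 and 9.31 in CD25 Control. ISP KO had 18.1 and 24.2 RPKM against 11.9 and 8.46 in ISP Control, and DP KO had 23.9 and 39.4 against 12.7 and 11.5 in DP Control. Dusp5 differed by 0.91 ± 0.16 SE on the log2 scale over all libraries (adjusted p = 0.0148). It was the 1 called gene among 11 tested receptor-induced factors, whose median difference was 0.10, and 0.911% of all tested genes rose. Bcl2, the inhibitor of cell death, stood at 18.4 and 16.0 RPKM in CD25 KO against 12.9 and 12.8 in CD25 Control. ISP KO had 11.3 and 10.9 RPKM against 7.33 and 8.50 in ISP Control, and DP KO had 4.39 and 4.57 against 3.00 and 3.46 in DP Control. Its difference was nearly even across stages (0.39 in CD25, 0.44 in ISP and 0.38 in DP, log2 difference 0.40 ± 0.06 SE, adjusted p = 0.00895). Acsl1, which activates fatty acids, was between 4.08 and 9.79 RPKM in all 6 KO libraries, against 2.11 to 3.22 RPKM in all 6 Control libraries (log2 difference 0.82 ± 0.15 SE, adjusted p = 0.0173).

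Of 28 tested genes that BCL6 is known to repress in B and T cells, 2 rose (Irf7 and Gata3), against 0.911% of all tested genes, and none fell. On the high side 3 met the condition, against 2.50% of all tested genes. Their median difference was 0.16, and 23 of the 28 were above 0, as were 5807 of all 11303 tested genes. Gata3, the factor that CD4 lineage cells depend on, stood at 41.2 and 38.5 RPKM in CD25 KO against 29.4 and 35.5 in CD25 Control. ISP KO had 67.6 and 79.2 RPKM against 56.2 and 61.9 in ISP Control, and DP KO had 48.2 and 53.8 against 43.3 and 45.0 in DP Control. Its call (log2 difference 0.27 ± 0.06 SE, adjusted p = 0.0483) was lost with any of 11 of the 12 single libraries left out (adjusted p up to 0.125), the exception being CD25 Control replicate 2. Ccnd2, cyclin D2, met the condition and was not called (log2 difference 0.84 ± 0.20 SE, adjusted p = 0.0704). It stood at 65.5 and 64.4 RPKM in CD25 KO against 50.9 and 60.0 in CD25 Control. ISP KO had 36.0 and 40.8 RPKM against 24.0 and 30.9 in ISP Control, and DP KO had 14.99 and 17.1 against 4.39 and 3.40 in DP Control. Its difference varied between populations (adjusted p = 0.00429). Of 13 tested corepressors and relatives of BCL6 none was called. Ncor1 and Tbl1x met the condition on the low side, as did 1.34% of all tested genes. Ncor1, which BCL6 recruits, stood at 32.1 and 34.1 RPKM in CD25 KO against 36.7 and 34.3 in CD25 Control. ISP KO had 34.1 and 34.5 RPKM against 42.6 and 36.5 in ISP Control, and DP KO had 51.9 and 48.6 against 62.2 and 62.7 in DP Control. It was not called (log2 difference -0.20 ± 0.05 SE, adjusted p = 0.0791).

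Few genes of cholesterol metabolism were called. Of 18 tested genes on that list, 2 rose, Msmo1 among them, against 0.911% of all tested genes, and none fell. On the high side 6 met the condition, against 2.50% of all tested genes, and all 18 differences were above 0, with a median of 0.16. Msmo1, an enzyme of sterol synthesis, stood at 146 and 168 RPKM in CD25 KO against 134 and 129 in CD25 Control. ISP KO had 158 and 158 RPKM against 136 and 149 in ISP Control, and DP KO had 84.7 and 92.6 against 66.8 and 61.4 in DP Control. Its difference was small (log2 difference 0.29 ± 0.06 SE, adjusted p = 0.0374), and the call was lost with any of 10 of the 12 single libraries left out (adjusted p up to 0.0890). Upper-quartile scaling, tried for the condition, gave 265 genes higher and 225 lower in KO in place of 310 and 173.

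Genes lower in KO were fewer and changed less. Dntt encodes terminal transferase, which adds bases at the joints of rearranging receptor genes, and its difference was among the largest of them. It stood at 251 and 239 RPKM in CD25 KO against 327 and 300.4 in CD25 Control. ISP KO had 133 and 98.9 RPKM against 180.0 and 194 in ISP Control, and DP KO had 311 and 215 against 393 and 442 in DP Control. KO lay below Control at every stage, at 0.782, 0.621 and 0.629 of the Control mean in CD25, ISP and DP (log2 difference -0.58 ± 0.10 SE, adjusted p = 0.0148). Txnip, a regulator of glucose uptake, stood at 63.3 and 51.5 RPKM in CD25 KO against 74.4 and 64.2 in CD25 Control. ISP KO had 35.1 and 31.3 RPKM against 40.5 and 41.8 in ISP Control, and DP KO had 108 and 82.7 against 172 and 169 in DP Control. The call of Txnip (log2 difference -0.47 ± 0.10 SE, adjusted p = 0.0445) was lost with any of 9 single libraries left out, among them all 4 ISP libraries (adjusted p up to 0.114).

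Surface proteins of thymocytes were among the genes lower in KO. Cd2, an adhesion receptor of T cells, stood at 1.12 and 0.975 RPKM in CD25 KO against 1.40 and 1.73 in CD25 Control. ISP KO had 107 and 105 RPKM against 129 and 121 in ISP Control, and DP KO had 51.0 and 49.6 against 65.8 and 77.8 in DP Control. Cd2 differed by -0.35 ± 0.06 SE on the log2 scale over all libraries (adjusted p = 0.0148). Pvr, an adhesion protein that is a ligand of CD226, stood at 2.51 and 1.93 RPKM in CD25 KO against 2.87 and 2.86 in CD25 Control. ISP KO had 8.00 and 6.95 RPKM against 9.87 and 9.65 in ISP Control, and DP KO had 21.4 and 21.7 against 32.7 and 36.7 in DP Control. It climbed with stage in both genotypes and was lower in KO each time (log2 difference -0.43 ± 0.08 SE, adjusted p = 0.0177), and the call was lost, with adjusted p up to 0.0520, without ISP KO replicate 2, DP KO replicate 1 or DP Control replicate 1. Cd8a, a chain of the CD8 receptor used in the sort, stood at 1.29 and 1.64 RPKM in CD25 KO against 2.16 and 1.76 in CD25 Control. ISP KO had 232 and 230.4 RPKM against 302 and 269 in ISP Control, and DP KO had 799.6 and 774 against 873 and 857 in DP Control. It met the condition and missed the threshold (log2 difference -0.23 ± 0.05 SE, adjusted p = 0.0524).

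Of 19 tested genes of the DP stage, 1 fell (Ets2), against 0.283% of all tested genes, and none rose. Only 1 of the 19 differences was above 0, that of Bcl6, the targeted gene, which is on this list. The KO difference varied between populations for 5 of the 19, against 8.40% of all tested genes. The median was -0.16 over all libraries, 0.02 in CD25, -0.15 in ISP and -0.31 in DP. Ets2, a transcription factor of the ETS family, stood at 71.0 and 80.2 RPKM in CD25 KO against 85.4 and 84.3 in CD25 Control. ISP KO had 88.0 and 88.4 RPKM against 108 and 102 in ISP Control, and DP KO had 301 and 285 against 360.4 and 364 in DP Control. KO was at 0.89, 0.84 and 0.81 of the Control mean in CD25, ISP and DP (log2 difference -0.24 ± 0.04 SE, adjusted p = 0.0184), and the call was lost without ISP KO replicate 1 or 2, ISP Control replicate 1 or DP Control replicate 2 (adjusted p up to 0.0618). Zfyve28 and Cox6b2, a testis form of a cytochrome oxidase subunit, were also called (log2 difference -0.57 ± 0.11 SE, adjusted p = 0.0257 for Zfyve28 and log2 difference -0.43 ± 0.07 SE, adjusted p = 0.0149 for Cox6b2). Zfyve28 was not called with any of 7 single libraries left out, among them all 4 ISP libraries (adjusted p up to 0.0737). Ddx6 and Ash1l, an RNA helicase of processing bodies and a histone methyltransferase, differed by -0.40 ± 0.08 and -0.35 ± 0.07 (SE), and their calls were lost with any of 7 and any of 6 single libraries left out (adjusted p up to 0.0741 and 0.0775).

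Histones were among the genes called lower. Of 22 tested replication-dependent histones, 3 fell (Hist1h1a, Hist1h1d and Hist1h1c), against 0.283% of all tested genes, none rose and 19 were not called. That all 3 are linker histones was seen after the calls were made, and linker histones were not a list of their own. The median difference was -0.14 over all libraries and differed by stage, at -0.47 in CD25, -0.37 in ISP and 0.21 in DP. Hist1h1d stood at 5.44 and 4.41 RPKM in CD25 KO against 8.62 and 6.43 in CD25 Control. ISP KO had 11.8 and 11.2 RPKM against 17.6 and 18.1 in ISP Control, and DP KO had 17.7 and 17.6 against 24.6 and 19.2 in DP Control. Hist1h1d differed by -0.47 ± 0.08 SE on the log2 scale over all libraries (adjusted p = 0.0185). Hist1h1a stood at 5.30 and 4.39 RPKM in CD25 KO against 10.7 and 6.35 in CD25 Control. ISP KO had 5.63 and 5.08 RPKM against 8.47 and 8.52 in ISP Control, and DP KO had 6.14 and 7.34 against 9.56 and 8.35 in DP Control. Hist1h1a differed by -0.54 ± 0.11 SE on the log2 scale over all libraries (adjusted p = 0.0275). Hist1h1c was called while its groups overlapped in DP (log2 difference -0.34 ± 0.07 SE, adjusted p = 0.0455). Histone genes share sequence and most of their transcripts have no poly(A) tail, and neither the counting of shared reads nor the enrichment step is given in the sources used here. Each of the 3 calls was lost with at least 5 single libraries left out, all 4 ISP libraries among them (adjusted p up to 0.112). None of the 24 S phase genes and 23 genes of G2 and mitosis was called, while the KO difference varied between populations for 20 and 18 of them, against 8.40% of all tested genes. The median difference of the S phase genes was -0.0071 in CD25, -0.06 in ISP and 0.48 in DP. For G2 and mitosis it was -0.09 in CD25, -0.11 in ISP and 0.44 in DP.

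**Figure D4:**
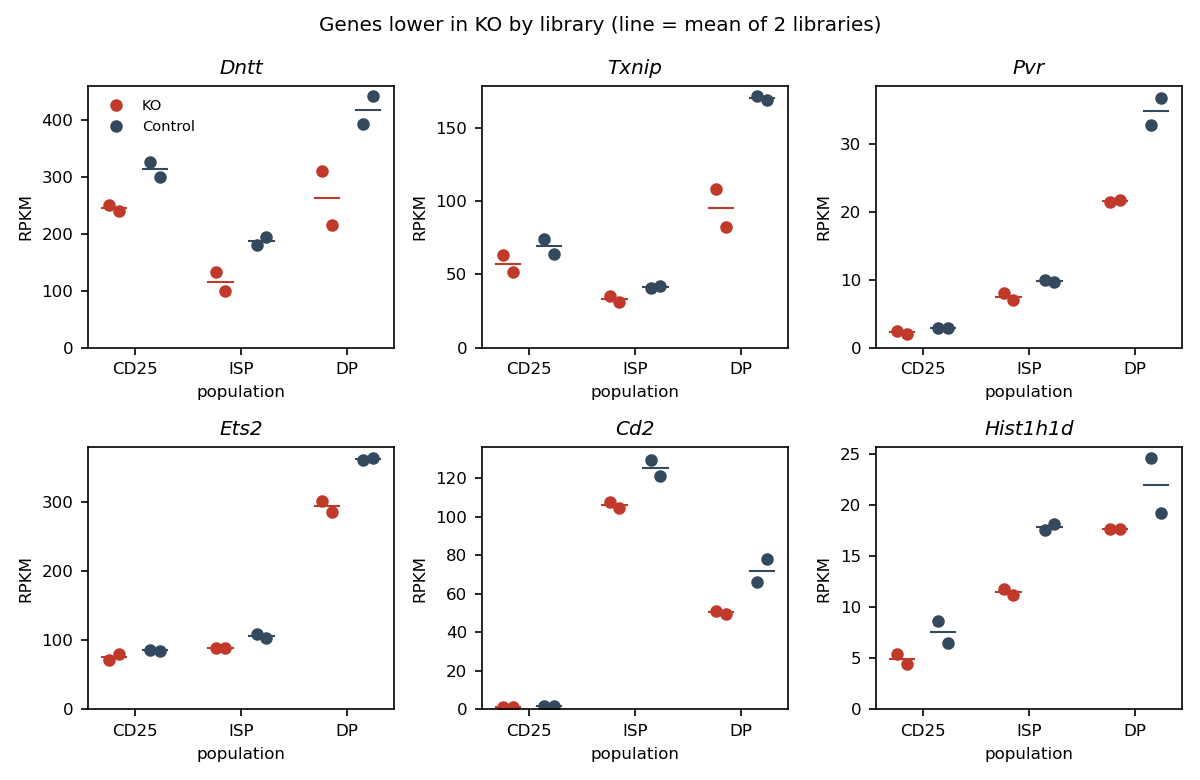
RPKM of 6 genes lower in KO in the 12 libraries, by population, with KO (red) left of Control (dark) and a line at the mean of each pair. All 6 genes met the condition, which itself puts both KO points below both Control points of the same population. Some have a higher level at later stages, such as Ets2, while Cd2 is near 1 RPKM in CD25 and highest in ISP.

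All 6 KO libraries lay on 1 side of all 6 Control libraries, whatever the population, for 12 tested genes higher in KO (0.106%) and 2 lower (0.0177%). The 12 were Mitd1, Lilrb4a, Lyz2, Ccl9, Gh, Ifi27l2a, Anxa3, Clec4n, Igsf6, Acsl1, Hp and Cybb. Mitd1, a protein of cell division, differed least among these (log2 difference 0.23 ± 0.05 SE, adjusted p = 0.0457), and its call was lost with any of 10 single libraries left out (adjusted p up to 0.123). Snhg20, a long noncoding RNA that hosts small nucleolar RNAs, stood at 50.3 and 52.3 RPKM in CD25 KO against 59.7 and 57.3 in CD25 Control. ISP KO had 39.9 and 41.0 RPKM against 52.5 and 52.6 in ISP Control, and DP KO had 48.9 and 48.0 against 63.6 and 59.9 in DP Control. Snhg20 differed by -0.30 ± 0.04 SE on the log2 scale over all libraries (adjusted p = 0.00895). Lrrc8b, a subunit of volume-regulated anion channels, stood at 5.46 and 6.05 RPKM in CD25 KO against 7.11 and 6.45 in CD25 Control. ISP KO had 6.41 and 4.34 RPKM against 8.16 and 7.42 in ISP Control, and DP KO had 5.89 and 5.77 against 6.75 and 7.20 in DP Control. It was not called (log2 difference -0.30 ± 0.08 SE, adjusted p = 0.113).

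At the edge of the condition, the smallest gaps between genotypes among tested genes belonged to Tmem55b, with 18.5 and 18.6 RPKM in CD25 KO against 18.3 and 18.5 in CD25 Control, and to Exosc9, with 51.2 and 50.6 RPKM in ISP KO against 49.4 and 50.6 in ISP Control. In both the nearest values of KO and Control part only in a further digit. Just outside it were Phf11c and Lsr, which were called. Phf11c had 13.7 and 10.6 RPKM in ISP KO against 10.7 and 8.74 in ISP Control, and Lsr 13.0 and 10.6 RPKM in ISP KO against 10.8 and 7.25 in ISP Control. The other called genes outside the condition were Hist1h1c, Erap1, Ncoa7 and Ddx3y. With a gap of at least 0.1 on the log2 scale required, 127 of the 483 genes were left, 98 higher in KO and 29 lower. Smim5 shows what the condition leaves out. Its level was 26.7 and 24.9 RPKM in CD25 KO against 3.93 and 4.39 in CD25 Control. ISP KO had 4.05 and 15.9 RPKM against 14.9 and 6.75 in ISP Control, and DP KO had 9.91 and 30.1 against 16.8 and 11.7 in DP Control, and KO was far higher in CD25 alone.

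How these genes differ between populations was not part of the condition. It was read from the same fit as the difference between successive populations over the libraries of both genotypes. CD25 cells were unstimulated, so stage, culture and anti-CD3 change together between CD25 and ISP and cannot be told apart there. Between ISP and CD25, 144 of the 283 were lower in ISP (50.9%, against 28.8% of all tested genes) and 59 higher (20.8%, against 30.1%). Between DP and ISP, 177 of the 283 were lower in DP (62.5%, against 33.5%) and 37 higher (13.1%, against 33.9%). In both steps 92 of the 283 were lower, as were 7.56% of all tested genes. Irf7 was lower by 1.18 in ISP than in CD25, and Plac8 by 3.98 in DP than in ISP, on the log2 scale.

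Among the 151 genes lower in KO, 99 were higher in DP than in ISP (65.6%, against 33.9% of all tested genes) and 16 lower (10.6%, against 33.5%). Between ISP and CD25, 39 were higher (25.8%) and 61 lower (40.4%). Dntt and Txnip were each lower in ISP than in CD25 and higher in DP than in ISP, by 1.16 and 1.76 on the log2 scale in the step to DP, and Ets2 by 1.75. These shares describe the genes and have no test of their own, since genes are not independent replicates.

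**Figure D5:**
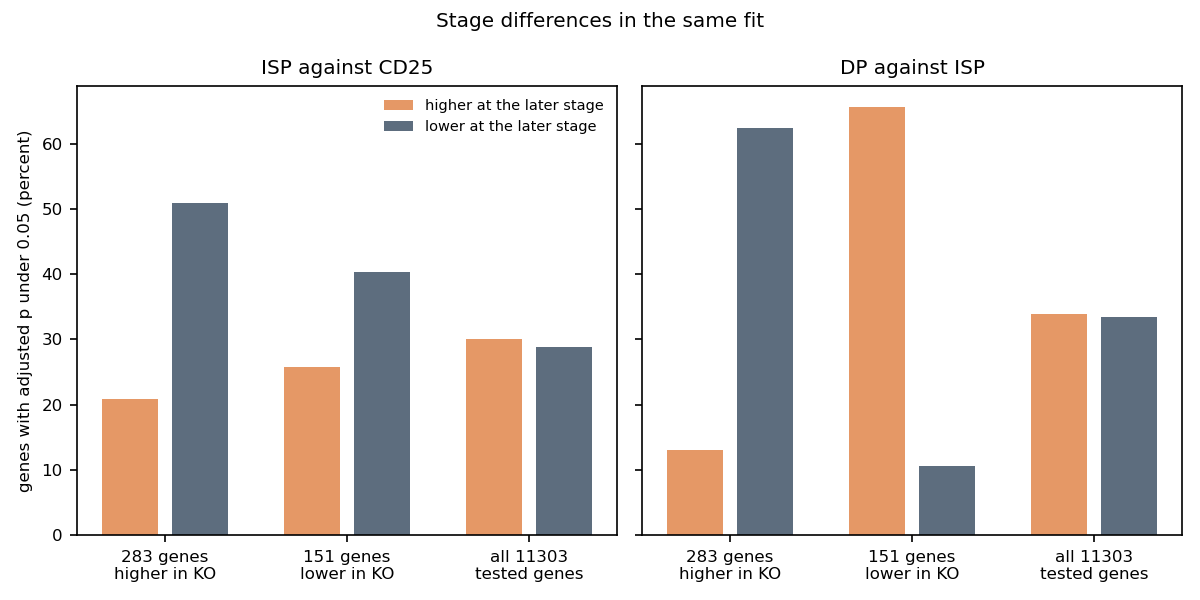
Percent of genes that were higher (orange) or lower (grey) at the later stage at an adjusted p under 0.05, for ISP against CD25 (left) and DP against ISP (right), among the 283 tested genes higher in KO, the 151 lower in KO and all 11303 tested genes. In the step to DP 62.5% of the genes higher in KO are lower, and 65.6% of the genes lower in KO are higher, against 33.5% and 33.9% of all tested genes.

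Other lists of genes used by thymocytes gave few calls. Of 16 tested genes of the CD25+ stage and Notch signalling, Spi1 rose, against 0.911% of all tested genes, and none fell. With Myc and Hes1, 3 of the 16 met the condition on the high side, against 2.50% of all tested genes. Myc, a growth regulator, stood at 195 and 196 RPKM in CD25 KO against 172 and 189.8 in CD25 Control. ISP KO had 152 and 153 RPKM against 130.2 and 138 in ISP Control, and DP KO had 35.5 and 41.6 against 20.9 and 18.8 in DP Control. It was not called (log2 difference 0.41 ± 0.11 SE, adjusted p = 0.102), and its difference varied between populations (adjusted p = 0.00636). Of 15 tested genes of the T cell receptor complex and its proximal signalling, Lcp2 rose and Cd2 fell, against 0.911% and 0.283% of all tested genes. Lcp2, the adaptor SLP-76, stood at 77.3 and 76.3 RPKM in CD25 KO against 71.0 and 69.9 in CD25 Control. ISP KO had 107 and 116 RPKM against 90.4 and 89.0 in ISP Control, and DP KO had 172 and 210.1 against 141 and 149.7 in DP Control. Lcp2 differed by 0.27 ± 0.06 SE on the log2 scale over all libraries (adjusted p = 0.0426), and its call was lost with any of 8 single libraries left out, all 4 ISP libraries among them (adjusted p up to 0.108). No gene was called among 20 tested ribosomal proteins, 18 of oxidative phosphorylation, 20 of glycolysis, 14 p53 targets, 15 of the amino acid response, 14 cytotoxic or effector genes, 7 markers of NK and innate lymphoid cells, 4 of gamma delta T cells or 3 of B lineage cells. The same held for 3 markers of dendritic cells, 2 of mast cells, 2 of thymic epithelium, 1 of endothelium, 1 of mesenchyme, 3 long nuclear RNAs and 6 genes of dissociation and heat stress, and the 8 erythroid markers in the table were too low to be tested. No call over all libraries does not mean no change in 1 population. The KO difference varied between populations for 16 of the 20 ribosomal proteins, against 8.40% of all tested genes. Their median was -0.19 in CD25, -0.04 in ISP and 0.27 in DP. It also varied for 6 of the 18 genes of oxidative phosphorylation and 4 of the 15 of the amino acid response. Gata3 was the 1 called gene among 12 tested effector transcription factors and Bcl2 the 1 among 13 STAT5 targets and cytokine feedback genes. Both rose, as did 0.911% of all tested genes.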

How the data were processed

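RNA-seq libraries of 12 samples were analysed from 1 deposited table, in which the authors gave each gene's RPKM. The submitters' processing notes name BWA and the build GRCm38. Which program counted reads, with which annotation and filters, is not given in the sources used here. Reads were recovered from the smallest step between values of a gene in a library. All 169595 values above 0 (100%) were whole within 0.02 reads. The recovered reads came to 96.4% to 101.9% of the denominator that the RPKM values imply, so scaling was not to the plain total. The 27 gene names with the form of dates stayed in the counts, and none is named here.

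Genes that reached 1 RPKM in 2 or more libraries were fitted on log2(RPKM + 1) in limma 3.58.1 (R 4.3.3) with a trend on the mean level, population and genotype as terms, and Benjamini-Hochberg adjustment over all 11303 genes. A 6-group fit gave the test of differences between populations. No count model was the main test, because the deposited unit is RPKM. The procedure was tested on simulated data. Groups follow titles and genotype labels. Positions are from GENCODE M21 (GRCm38) and promoters from RefSeq. Tables and plots used Python 3.11.15, pandas 2.3.3, numpy 2.4.6 and matplotlib 3.10.9.

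The genes and the 32 lists were chosen with earlier results of these data known. Named genes are Bcl6, the 15 largest rises and 15 largest falls among called genes that met the condition and averaged at least 5 RPKM in 1 group, genes with all 6 libraries on 1 side, up to 4 genes per list with the smallest p, sex-linked genes, the 2 narrowest gaps, the 2 called genes nearest to the condition, Gh and Smim5. Only part of these are named, and some genes are not reported here. Isg15, Irf9, Usp18, Ifit1, Irgm1, Gbp2 and Ly6a were added after their values were seen, as were the other neighbours on chromosomes 3, 5 and 11. Alternatives to the processing are given at the end. The floor given for reads covers counting error alone.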

Additional observations from a re-analysis of the deposited data

Results flagged for a closer look

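For 10 named genes the KO difference varied between the 3 populations in limma's test of the 6-group fit, which called 949 of 11303 genes (8.40%). In DP the log2 difference was the largest of the 3 for Gh (adjusted p = 0.00916), Lipg (adjusted p = 0.00894), Gpr25 (adjusted p = 0.0192), Dnmt3b (adjusted p = 0.00682), Plac8 (adjusted p = 0.0272), Acsl1 (adjusted p = 0.0235), Ccnd2 (adjusted p = 0.00429) and Myc (adjusted p = 0.00636). Ifitm3 had its largest difference in ISP, at 1.21 against 1.13 in DP and 0.37 in CD25 (adjusted p = 0.0211). Ddx3y, the Y-linked gene, had a difference of -0.27 in CD25, -3.93 in ISP and -4.89 in DP (adjusted p = 0.0174). All of these but Ddx3y met the condition of the same direction in each population, so only the size varied. With 2 libraries per group no library could be judged as standing apart from its group.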

How the results depend on the processing

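Leaving out each of the 12 libraries in turn gave 64 to 179 called genes (54 to 114 higher in KO, 8 to 65 lower), 263 to 1336 genes whose difference varied between populations, and 588 to 1027 genes that met the condition (365 to 595 higher, 211 to 432 lower). The last count can only grow, since fewer libraries have to be apart. The 6-group fit called 760 genes (504 higher, 256 lower), all 135 among them. Without a filter on low values 59 were called (49 and 10), and 366 for varying differences. Voom in limma on recovered reads called 261 (112 lower). This setting was chosen after seeing the data in place of the planned count models and TMM scaling, which were not run. A pseudocount of 0.1 RPKM called 111 and a fit without a trend 104. Without the CD25 libraries 336 genes were called (174 and 162), without the ISP libraries 0 (0 and 0), and without the DP libraries 2 (0 and 2). The cause of these differences was not tested, though fewer libraries also leave fewer degrees of freedom.

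Of settings added after seeing the data, the 8 libraries with 1 population in title and library name called 0 genes (0 and 0, with 778 at an unadjusted p under 0.05) and the CD25 libraries alone called 1 (1 and 0). Leaving out the 2 Control libraries lowest in Xist called 35 (31 and 4), and 897 genes met the condition (534 and 363). In these 3 settings all 135 genes kept their sign, which for the 129 that met the condition could not come out otherwise. Recovered reads scaled to their sum gave 487 genes that met the condition, 455 of them shared, and upper-quartile scaling gave 490, 435 of them shared. All 6 against all 6 left 26 (19 and 7), and a gap of at least 0.1 left 127 (98 and 29). Replicate numbers did not pair KO with Control libraries: deviations of same-numbered libraries had correlations of -0.07 in CD25, -0.03 in ISP and 0.01 in DP. Same-numbered ISP and DP libraries had 0.06 in KO and 0.12 in Control. Replicate 2 was the library low in Xist in both ISP Control and DP Control, so same-numbered ISP and DP libraries may share a source. The main fit takes all libraries as separate. With ISP and DP libraries of 1 genotype and number taken as 1 source, also added after seeing the data, the estimated correlation was -0.0755 and 197 genes were called (142 and 55), all 135 among them. The fit with the replicate number as a block called 39 genes (34 and 5), all among the 135, and 548 for varying differences. Named genes not called by it include Lyz2, Dusp5, Acsl1, Dntt and Cd2.

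With groups read from the library names, 5311 genes were called (2599 and 2712) and 1805 met the condition (933 and 872). Named genes then had the opposite sign of log2 difference, at -0.24 for Isg15, -0.10 for Irf7, -0.38 for Oas1a, -0.74 for Oasl2, -0.036 for Ifi27, -0.96 for Ifitm3, -0.18 for Rtp4, -0.26 for Ifit1, -0.19 for Irgm1, -0.69 for Spi1, -0.73 for Lipg, -1.26 for Gpr25, -0.88 for Dnmt3b, -2.56 for Plac8, -1.57 for Ly6c2, -1.67 for Ly6a, -0.61 for Bcl2, -0.21 for Gata3, -1.17 for Ccnd2, -1.51 for Myc, -0.57 for Msmo1, 0.66 for Dntt, 1.16 for Zfyve28, 0.11 for Hist1h1d, 0.38 for Hist1h1c, 1.08 for Txnip, 0.96 for Pvr, 0.0704 for Cox6b2, 0.17 for Ddx6, 0.38 for Ash1l, 1.11 for Ets2, 1.03 for Cd8a, 0.36 for Ncor1, 0.099 for Snhg20, 0.23 for Ddx3y, -0.44 for Exosc9, -0.32 for Phf11c and -0.36 for Lsr. Xist was at -0.088 with the 2 Control libraries lowest in Xist left out. Xist was at -0.35 with the CD25 libraries alone. With 2 libraries per group, small differences of low genes were not detectable.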

Other observations

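Some genes that met the condition were too low to be tested. Of the 27 untested genes higher in KO, 23 stayed below 1 RPKM in every library. Among the 27, Cd300a, Cd86, Msr1, Clec5a, Clec4a3, Cd33, Ccr1 and Aoah are known from myeloid cells. These 8 were picked after the names were seen and have no test. Of the 22 untested genes lower in KO, 18 stayed below 1 RPKM in every library.

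Of other neighbouring genes that met the condition, Thnsl2, Mir8112 and Cd8a on chromosome 6 were all lower in KO, between 71128166 and 71379173 and among 5 tested genes. By chromosome, the share of tested genes that met the condition ran from 2.26% on chromosome 4 to 6.09% on chromosome 15, apart from the Y with 0 of 4, against 3.88% over all placed genes.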
